A study of Mus musculus with 5 samples.

Results

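The genes described here are 9 genes of the mouse MHC class II antigen presentation pathway, taken by symbol from a table of read counts for 24527 genes: H2-Aa, H2-Ab1, H2-Eb1, Cd74, H2-DMa, H2-DMb1, H2-Oa, H2-Ob and Ciita. Bulk RNA-seq of prostate tumor tissue was compared between 3 castrated and 2 intact TripleTg mice, each library coming from a separate animal, to ask what castration changes in the tumor transcriptome. All 5 animals carried hHGFtg-hMETtg-BCAT-PBCre: a human HGF transgene expressed ubiquitously, and a human MET transgene and a stabilized β-catenin allele (deletion of Ctnnb1 exon 3) that are switched on by Cre under the probasin promoter, which is active in prostate epithelium. Castration was performed at an age of 4 months in the castrated group, and tissue of both groups was collected at 8 months. The mice were bred from C57BL/6 and C3H SCID backgrounds, so the SCID mutation, which blocks B and T cell development, may segregate among them. Neither the SCID genotype nor the MHC haplotype of each animal was given in the sources used here. Library totals were 28015507, 18951782 and 20492061 counts for castrated replicates 1, 2 and 3, and 21560355 and 22853501 counts for intact replicates 1 and 2.

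MHC class II molecules are αβ heterodimers that display peptides from endocytosed proteins to CD4+ T cells. The invariant chain Cd74 escorts newly made dimers to endosomes and blocks their groove, H2-DM exchanges the last invariant chain fragment for peptide, and H2-DO restrains H2-DM. Ciita is a coactivator of class II genes. Dendritic cells, B cells and macrophages use it constitutively or readily, while epithelial cells can be induced to do so by interferon gamma.

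The 5 libraries differed in the levels of tissue marker genes. Epithelial transcripts were abundant in every library, with Epcam, an epithelial adhesion protein, at 753, 718 and 638 CPM (counts per 1000000 counts of the library) in castrated replicates 1 to 3 and at 1371 and 481 CPM in the intact replicates. Pbsn, the androgen-driven prostate secretory gene whose promoter drives the Cre, was at 0.464, 0 and 0.244 CPM in the castrated and at 0 and 4.90 CPM in the intact replicates, so this defining marker was at or near 0 in all libraries but intact replicate 2. Hoxb13, a homeobox transcription factor of prostate epithelium, was at 5.18, 20.3 and 26 CPM in castrated and 3.57 and 66.6 CPM in intact replicates, and was likewise highest in intact replicate 2. Adipoq, which fat cells secrete, was at 0.535, 67.6 and 68.4 CPM in castrated replicates and at 0 and 0.0875 CPM in intact replicates, which set castrated replicates 2 and 3 apart.

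The class II genes were at higher levels in the castrated than in the intact samples. Summed over the 9 genes, they took 0.141%, 0.210% and 0.266% of all counts in castrated replicates 1 to 3, against 0.0180% and 0.0615% in the intact replicates. All 9 genes had a positive log2 fold change, between 1.82 and 2.95 with a median of 2.23, where the median of the 14612 genes tested was -0.03. In 8 of the 9 every castrated sample lay above both intact samples, as was the case for 17.8% of the genes tested, and in none did every castrated sample lie below both, as for 15.3% of the genes tested. None of the 9, and none of the 14612 genes (0%), passed an adjusted p of 0.05 (edgeR's quasi-likelihood test, Benjamini-Hochberg adjustment over all genes tested), and the smallest adjusted p of any gene was 0.289. At an unadjusted p under 0.05 with an absolute log2 fold change over 1, 7 of the 9 were higher in castrated samples, against 7.66% of the genes tested. An unadjusted p under 0.05 at any fold was reached by 7 of the 9 and by 2195 genes in all. With an adjusted p under 0.05 and the same fold limit, DESeq2 called 7 of the 9 and 989 genes in all, whereas edgeR's likelihood ratio test called 1, Cd74, and 369 genes in all. In bulk tissue, fewer cells of a type and less RNA per cell cannot be told apart, and that holds for every level below.

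**Figure D1:**
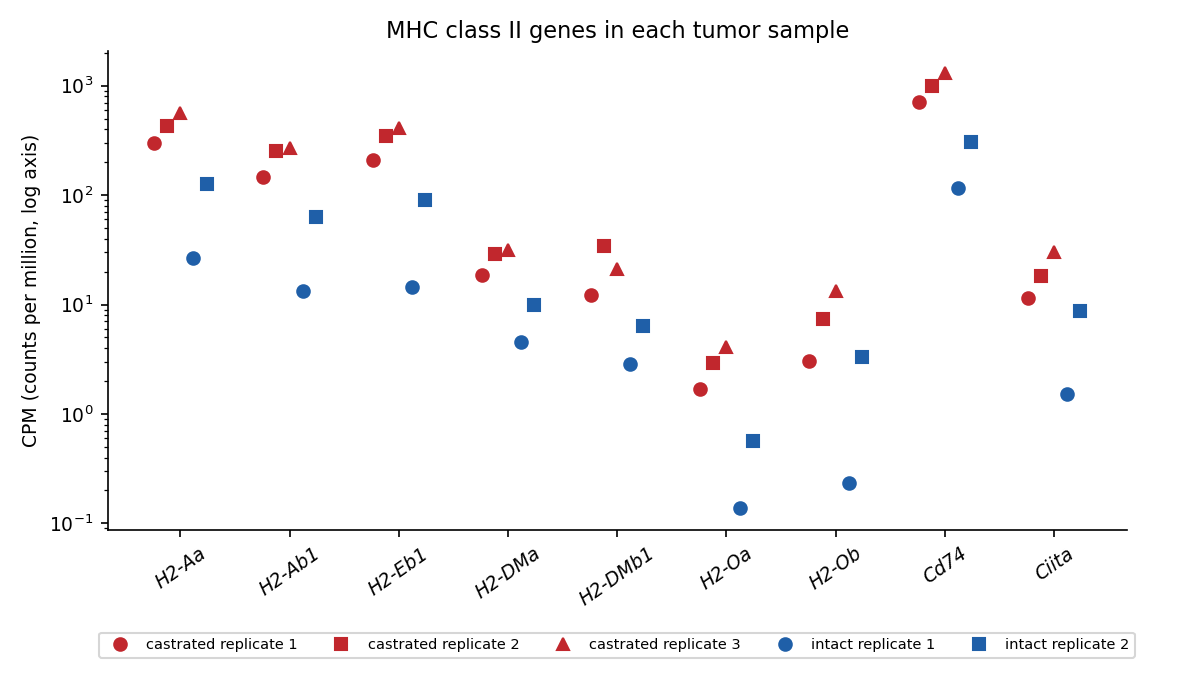
CPM of each of the 9 class II genes in each library on a log axis, with 1 point per mouse (red, the 3 castrated replicates, and blue, the 2 intact replicates). The castrated points lie above both intact points for every gene but H2-Ob, and the lowest point of each gene is intact replicate 1.

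The α and β chains of the I-A molecule are encoded by H2-Aa and H2-Ab1, and H2-Eb1 encodes the β chain of I-E. H2-Aa (mm10, chr17:34282744-34287823, minus strand) was at 299, 431 and 564 CPM in castrated replicates 1 to 3 and at 26.4 and 127 CPM in intact replicates 1 and 2. The groups did not overlap, and the ratio of the highest to the lowest replicate was 4.82 in intact and 1.88 in castrated samples. Its mean was 431 ± 132 CPM (SD, n = 3) in castrated and 76.9 ± 71.4 CPM (SD, n = 2) in intact samples, a log2 fold change of 2.42 with SE 0.78 and an adjusted p of 0.301 in edgeR's quasi-likelihood test. H2-Ab1 (chr17:34263227-34269418, plus strand) followed the same order of samples, at 147, 252 and 269.9 CPM in castrated and 13.4 and 63.0 CPM in intact replicates. Its log2 fold change was 2.48 with SE 0.77, and the adjusted p in the same test was 0.3. H2-Eb1 (chr17:34305867-34316674, plus strand), at 209, 344 and 408 CPM in castrated and 14.6 and 89.5 CPM in intact replicates, had the largest fitted log2 fold change of these 3 chains. Its log2 fold change was 2.55 with SE 0.87 and an adjusted p of 0.309. The α chain of I-E, H2-Ea, was not analysed here.

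Class II promoters are known for an X box, which the RFX complex binds, followed downstream by a Y box, a CCAAT element read on the opposite strand and bound by NF-Y; Ciita is recruited to the factors on them. Since the 9 genes moved together, the RefSeq promoters (GRCm38, 250 bases before to 50 after each transcript start) were searched on both strands for the letters TGATTGG for the Y box and AGNNAC, any 2 bases and ATG for the X box. Promoters were found for 6 of the 9 genes and not for H2-Ab1, Cd74 and Ciita. The Y box letters were present in 5 of the 6, all but H2-DMa with its 2 starts, and in 7.82% of 32851 promoters. The following 55-base windows, in the direction of transcription, show those 5 with the matched letters in capitals, so that the Y box letters, and in 3 of the 5 the X box letters upstream of them, can be seen.
H2-Aa: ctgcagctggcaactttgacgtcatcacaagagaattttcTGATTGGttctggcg
H2-Eb1: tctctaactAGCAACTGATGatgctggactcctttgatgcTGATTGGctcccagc
H2-DMb1: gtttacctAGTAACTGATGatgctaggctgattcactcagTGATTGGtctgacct
H2-Oa: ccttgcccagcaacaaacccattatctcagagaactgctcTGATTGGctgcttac
H2-Ob: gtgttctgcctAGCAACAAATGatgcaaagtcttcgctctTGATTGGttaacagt

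These windows are at chr17:34287859-34287913 on the minus strand for H2-Aa, and on the plus strand at chr17:34305766-34305820 for H2-Eb1, chr17:34153088-34153142 for H2-DMb1, chr17:34092294-34092348 for H2-Oa and chr17:34238806-34238860 for H2-Ob. The first base of the Y box letters lay at -50 in H2-Aa, -61 in H2-Eb1, -63 in H2-DMb1, -45 in H2-Oa and -59 in H2-Ob, counted from the transcript start. The X box letters preceded them by 31 bases in H2-Eb1, 32 in H2-DMb1 and 29 in H2-Ob. H2-Oa held the X box letters farther upstream, at -141 and outside the window, and the promoter of H2-Aa had no match to them. Both sets of letters on the same strand, with 28 to 33 bases between their first bases, were found in 4 of the 32851 promoters (0.0122%): those of H2-Eb1, H2-DMb1 and H2-Ob, and that of H2-Eb2, another gene of the class II locus. The spacing was chosen after these sequences were seen, and a match of letters is a description of the window, not a measured binding site.

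Cd74 (chr18:60803849-60812652, plus strand), the invariant chain, was the most abundant of the 9 genes in every sample. It was at 710.2, 986 and 1317 CPM in castrated and 116 and 307 CPM in intact replicates, again without overlap and with intact replicate 1 the lowest. The means were 1005 ± 304 CPM (SD, n = 3) and 211 ± 135 CPM (SD, n = 2), and the log2 fold change was 2.20 with SE 0.59 and an adjusted p of 0.29 in edgeR's quasi-likelihood test. Cd74 and the 3 classical chains together made up 96.7%, 95.7% and 96.2% of the class II counts in castrated and 94.8% and 95.3% in intact replicates, so the summed level is almost entirely theirs.

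H2-DMa and H2-DMb1 encode the α and β chains of the peptide exchange factor H2-DM. H2-DMa (chr17:34122832-34139101, plus strand) was at 18.7, 28.9 and 31.8 CPM in castrated and 4.55 and 9.93 CPM in intact replicates. It had the smallest fold change of the 9 genes, with a log2 value of 1.82, SE 0.50 and an adjusted p of 0.29 in edgeR's quasi-likelihood test. H2-DMb1 (chr17:34153191-34160229, plus strand) was at 12.1, 33.9 and 21.3 CPM in castrated and 2.88 and 6.43 CPM in intact replicates, with a log2 fold change of 2.23, SE 0.65 and an adjusted p of 0.294. Neither gene overlapped between groups, and H2-DMb1 was highest in castrated replicate 2. H2-DMb1 has a near-identical neighbour, H2-DMb2, which was at 5.68, 6.02 and 16.5 CPM in castrated and 0.464 and 3.41 CPM in intact replicates. Reads can be split between these copies in counting, so the level of each on its own is uncertain.

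H2-Oa and H2-Ob encode the α and β chains of H2-DO, which in most tissues is found mainly in B cells and some dendritic cells. In mean TPM they were the lowest of the 9 genes together with Ciita. H2-Oa (chr17:34092379-34095234, plus strand) was at 1.68, 2.90 and 4.10 CPM in castrated and 0.139 and 0.569 CPM in intact replicates, from 47, 55 and 84 counts against 3 and 13. The 3 counts of intact replicate 1 have an exact 95% Poisson interval of 0.0287 to 0.407 CPM, which covers counting error only. H2-Oa exceeded 1 CPM in the castrated samples only, so it entered the test through the group in which it was higher. Its log2 fold change of 2.95, the largest of the 9, had SE 0.85 and an adjusted p of 0.292 in edgeR's quasi-likelihood test. H2-Ob (chr17:34238905-34245908, plus strand) was at 3.03, 7.33 and 13.2 CPM in castrated and 0.232 and 3.33 CPM in intact replicates. It was the one gene whose groups overlapped, with castrated replicate 1 below intact replicate 2, and its log2 fold change of 2.06 had SE 1.21 and an adjusted p of 0.461.

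Ciita (chr16:10480072-10527640, plus strand), a coactivator of class II genes, was at 11.5, 18.2 and 30.1 CPM in castrated and 1.53 and 8.66 CPM in intact replicates. The groups did not overlap, but castrated replicate 1 exceeded intact replicate 2 by a ratio of only 1.33, compared with 2.33 to 2.35 for the 3 classical chains. Its mean was 19.9 ± 9.41 CPM (SD, n = 3) in castrated and 5.10 ± 5.04 CPM (SD, n = 2) in intact samples. The log2 fold change was 1.90 with SE 0.87, and with an adjusted p of 0.373 in edgeR's quasi-likelihood test, and an unadjusted p of 0.0792, Ciita and H2-Ob were the genes that missed the unadjusted threshold.

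The order of the samples was nearly the same for all 9 genes. Intact replicate 1 was the lowest library for 9 of 9, as it was for 22.7% of the genes tested, and castrated replicate 1 was the lowest castrated library for 9 of 9, as for 35.1% of the genes tested. Castrated replicate 3 was the highest for 8, and the share of all genes tested with this pattern was not computed. Between the highest and the lowest castrated replicate the genes differed by ratios of 1.70 to 4.34, and between the 2 intact replicates by 2.19 to 14.3. Beside this, the fitted differences between the groups were 3.54-fold for H2-DMa to 7.74-fold for H2-Oa. Across the 5 libraries the pairwise Pearson correlations of log2 CPM among the 9 genes were 0.90 or higher, where the genes share each library's depth and tissue.

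Levels between genes were compared per transcript length, as TPM (counts per base of gene length, scaled to sum to 1000000 in each library). In castrated samples the mean levels ran from Cd74 at 1672 TPM through H2-Aa at 899, H2-Eb1 at 452 and H2-Ab1 at 440.1 TPM. Then came H2-DMb1 at 41.4, H2-DMa at 28.7, Ciita at 7.79, H2-Ob at 6.89 and H2-Oa at 6.49 TPM. Neighbours in this order had separate ranges over the castrated samples only between H2-Aa and H2-Eb1, between H2-Ab1 and H2-DMb1, and between H2-DMa and Ciita. In the intact samples the last 2 of these 3 steps also had separate ranges, whereas H2-Aa and H2-Eb1 overlapped.

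Over the 5 libraries the TPM ratio within each dimer spanned a smaller fold range than the TPM of either of its chains. H2-Aa over H2-Ab1 in TPM was 2.15, 1.81 and 2.21 in castrated and 2.09 and 2.14 in intact replicates, while H2-Ab1 itself ran from 26.8 TPM in intact replicate 1 to 526 TPM in castrated replicate 3. H2-DMa over H2-DMb1 was 0.915, 0.505 and 0.883 in castrated and 0.937 and 0.915 in intact replicates, where castrated replicate 2 stood apart. H2-Oa over H2-Ob varied most, at 1.41, 1.01 and 0.794 in castrated and 1.53 and 0.436 in intact replicates. Cd74 over H2-Aa was 1.89, 1.83 and 1.87 in castrated and 3.51 and 1.92 in intact replicates, so that only intact replicate 1 had clearly more invariant chain per α chain. H2-DMa over H2-Oa was 5.41, 4.81 and 3.75 in castrated and 15.8 and 8.45 in intact replicates, lower in castrated samples without overlap, although the value of intact replicate 1 rests on the 3 counts of H2-Oa. With 3 samples against 2, a two-sided exact rank-sum test of any such ratio cannot go below p = 0.2. No test of these ratios was run.

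The other genes of the pathway did not all have log2 fold changes like those of the class II genes. Of the neighbouring class II genes, H2-Eb2, a β chain gene of the same locus, was at 0.75, 1.42 and 4.29 CPM in castrated and 0.139 and 0.438 CPM in intact replicates. The groups did not overlap, and the log2 fold change was 2.82 with SE 1.09 and an adjusted p of 0.329 in edgeR's quasi-likelihood test; like H2-Oa, it exceeded 1 CPM in castrated samples only. The 7 factors that bind the X and Y boxes (Rfx5, Rfxap, Rfxank, Nfya, Nfyb, Nfyc and Creb1) had log2 fold changes between -0.21 and 0.20 with a median of 0.03. None of the 7 was past the unadjusted threshold, at which 7.66% of genes were higher and 3.26% lower, so for 7 genes that count is near the general share. In none did the groups separate, where 17.8% of the genes tested were separate and higher and 15.3% separate and lower. Creb1, a CREB family factor and the most abundant of them, was at 79.0, 89.2 and 89.2 CPM in castrated and 84.6 and 94.3 CPM in intact replicates.

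Interferon gamma, the main inducer of Ciita in non-immune cells, was barely detected: Ifng had 0, 0 and 1 counts in castrated and 1 and 1 counts in intact replicates and was not tested. Of the 6 other genes of its signaling arm, none was past the unadjusted threshold, where 7.66% of the genes tested were higher and 3.26% lower. Their median log2 fold change was 0.49. Jak1, a kinase of the interferon receptors, was the one with an unadjusted p under 0.05, at 280.1, 329 and 341 CPM in castrated and 137 and 182 CPM in intact replicates. The groups of Jak1 did not overlap, and its log2 fold change of 0.96 had SE 0.26 and an adjusted p of 0.29 in edgeR's quasi-likelihood test. Of 10 genes that interferon gamma is known to induce (Cxcl9, Cxcl10, Gbp2, Gbp3, Gbp4, Gbp5, Igtp, Irgm1, Iigp1 and Cd274), none was past the threshold. For so few genes that is near the shares of all genes tested, 7.66% higher and 3.26% lower. None of the 10 had separate groups, where 17.8% of the genes tested were separate and higher and 15.3% separate and lower. Their median log2 fold change was 0.28. Irgm1, an immunity-related GTPase and the most abundant of them, was at 81.0, 58.0 and 66.7 CPM in castrated and 88.5 and 30.7 CPM in intact replicates, with the intact values on both sides of the castrated ones.

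Genes of the endosomal compartment in which class II molecules load peptide were mostly higher in castrated samples. All 7 (Ctss, Ctsl, Ctsb, Ctsd, Lgmn, Ifi30 and Sppl2a) had a positive log2 fold change with a median of 1.46. In 6 every castrated sample lay above both intact samples, as in 17.8% of genes. The unadjusted threshold was passed by 2, both higher in castrated samples, where 7.66% of the genes tested were. Ifi30, a thiol reductase that unfolds antigens, was at 49.3, 129 and 102 CPM in castrated and 29.5 and 41.3 CPM in intact replicates, without overlap. Ctsd, an aspartic protease, was at 1417, 3478 and 1557 CPM in castrated and 862 and 689 CPM in intact replicates. Ctsb, a cysteine protease and the most abundant of the 7, was at 1549, 6629 and 2800.5 CPM in castrated and 1234 and 758 CPM in intact replicates. Castrated replicate 2 was the highest library for Ifi30, Ctsd and Ctsb, unlike for most class II genes.

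Genes that act around class II molecules at the cell surface were also measured. Cd83, which protects class II molecules from ubiquitin-driven turnover, was at 36.6, 60.5 and 29.4 CPM in castrated and 2.27 and 23.3 CPM in intact replicates. Its log2 fold change was 1.65 with SE 1.0 and an adjusted p of 0.475 in edgeR's quasi-likelihood test. The log2 fold change of Cd83 was 0.79 without intact replicate 1 and 4.26 without intact replicate 2. The ubiquitin ligase genes March1 and March8 were not analysed here. Of 4 costimulatory ligand and receptor genes (Cd80, Cd86, Cd40 and Icosl) none was past the threshold, where 7.66% of the genes tested were higher and 3.26% lower. In 1 every castrated sample lay above both intact samples, beside 17.8% of the genes tested, and the median log2 fold change was 0.80. Cd4, the coreceptor that binds class II molecules on T cells, was at 6.39, 19.4 and 17 CPM in castrated and 1.07 and 5.56 CPM in intact replicates, without overlap. Its log2 fold change of 2.04 had SE 0.91 and an adjusted p of 0.361 in edgeR's quasi-likelihood test. Lag3, an inhibitory receptor that also binds class II molecules, was at 2.64, 5.43 and 10.1 CPM in castrated and 2.78 and 2.10 CPM in intact replicates, which overlapped.

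**Figure D2:**
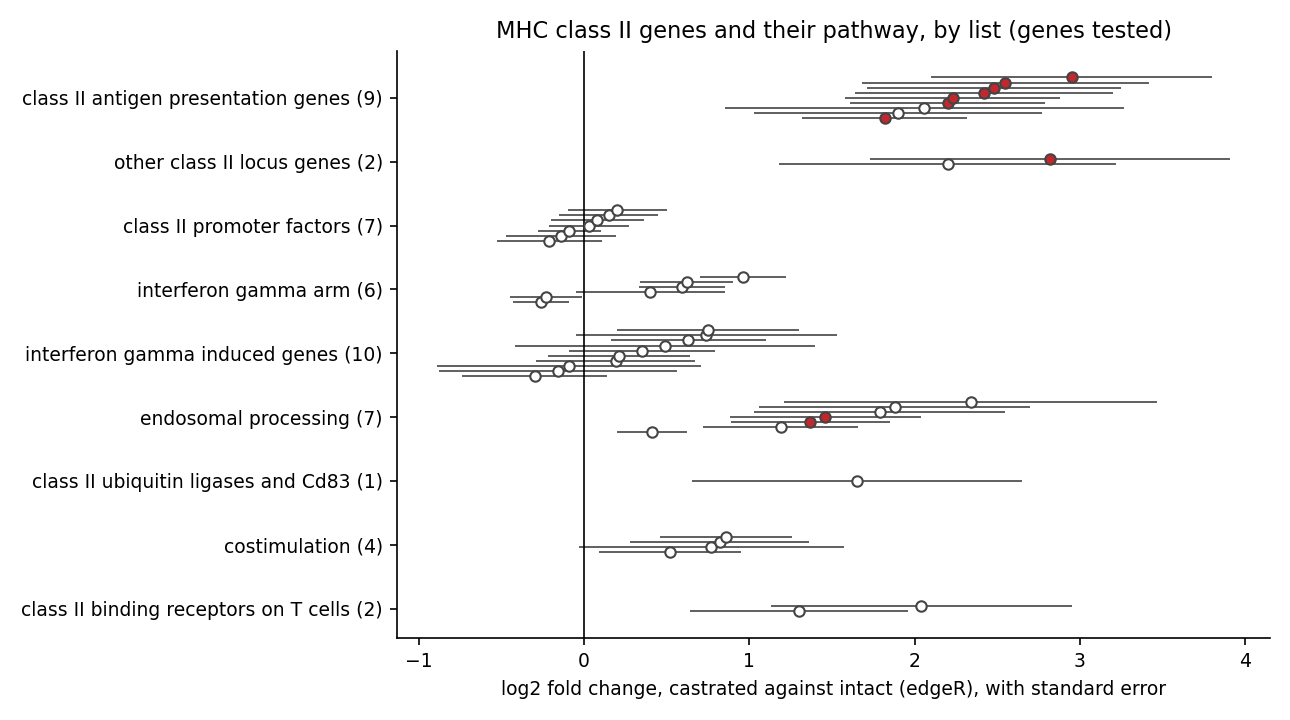
Log2 fold change, castrated against intact, of every tested gene of the class II genes and of the pathway lists, with 1 point per gene, a bar of 1 SE to each side, and filled points for genes past the unadjusted threshold. The class II genes lie between 1.82 and 2.95, whereas the promoter factors lie between -0.21 and 0.20 around 0.

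Markers of cell types that carry class II molecules also differed between the groups. The macrophage list (Adgre1, Csf1r, Cd68, Mrc1, Cd163, C1qa, C1qb, C1qc and Lyz2) summed to 2681, 7228 and 2994 CPM in castrated and 1139 and 1568 CPM in intact replicates. All 9 genes had every castrated sample above both intact samples, where 17.8% of the genes tested did, and 8 were past the unadjusted threshold and higher, where 7.66% were. Their median log2 fold change was 1.56. Lyz2, a lysozyme of myeloid cells and the most abundant, was at 1632, 4659 and 1667 CPM in castrated and 578 and 1009.6 CPM in intact replicates. Adgre1, which encodes F4/80, was at 57.6, 173 and 94.6 against 21.0 and 37.9 CPM, and Csf1r, the receptor on which macrophages depend, was at 132, 364 and 237 against 75.8 and 87.3 CPM. Both were highest in castrated replicate 2. Ptprc, which encodes the leukocyte marker CD45, was at 60.8, 216 and 149 CPM in castrated and 28.3 and 57.0 CPM in intact replicates, with a log2 fold change of 1.70, SE 0.65 and an adjusted p of 0.328 in edgeR's quasi-likelihood test.

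The B cell list (Ms4a1, Cd79a, Cd79b, Pax5, Cd22 and Blk) summed to 16.3, 97.6 and 99.1 CPM in castrated and 4.04 and 9.50 CPM in intact replicates. Of its 6 genes, 5 exceeded 1 CPM in castrated samples only and so entered the test through the group in which they were higher. Cd22, an inhibitory receptor of B cells and the most abundant of the 6, was at 6.32, 33.7 and 26.3 CPM in castrated and 2.88 and 6.26 CPM in intact replicates, without overlap. Cd79a, a signaling chain of the B cell receptor, was at 2.96, 19.4 and 22.9 CPM in castrated and 0.557 and 0.919 CPM in intact replicates. The dendritic cell list (Flt3, Zbtb46, Itgax, Xcr1, Clec9a, Batf3, Cd209a, Ccr7 and Siglech) summed to 48.9, 564 and 360.2 CPM in castrated and 19.3 and 71.6 CPM in intact replicates, so these groups overlapped. All 9 genes had a positive log2 fold change with a median of 2.61. None of the 9 was past the unadjusted threshold, where 7.66% of the genes tested were higher and 3.26% lower. In 2 of the 9 every castrated sample lay above both intact samples, a share near the 17.8% of all genes tested. Its most abundant gene Itgax, an integrin that macrophages can express too, was at 21.1, 518 and 286 against 9.55 and 51.3 CPM and made up much of that sum. Flt3, a receptor needed by dendritic cells, was at 2.93, 6.17 and 10.5 against 0.742 and 3.63 CPM, with castrated replicate 1 below intact replicate 2 and castrated replicate 3 the highest, the sample order of H2-Ob. Xcr1, Clec9a and Cd209a were at 0 in intact replicate 1, where 3 counts would be 0.139 CPM.

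Of the cell types not specialized for class II presentation, the T cell list (Cd3d, Cd3e, Cd3g, Cd2, Lck, Cd8a and Cd5) had no gene with separate groups. Of all genes tested, 17.8% were separate and higher in castrated samples and 15.3% separate and lower. The T cell sums were 14.5, 39.2 and 45.7 CPM in castrated and 12.7 and 33.1 CPM in intact replicates. Cd3e, a T cell receptor chain, was at 1.78, 7.44 and 8 against 0.510 and 4.38 CPM. The log2 fold change was positive for 6 T cell genes and negative for 1, Cd8a. Cd8a was at 0.857, 1.9 and 2.39 against 1.07 and 9.58 CPM, with a log2 fold change of -1.71. The 6 epithelial genes (Epcam, Cdh1, Krt8, Krt18, Krt5 and Krt14) summed to 3309.7, 2959 and 3862 CPM in castrated and 4679.7 and 2999 CPM in intact replicates. None had separate groups, beside the same 17.8% higher and 15.3% lower of the genes tested. The adipocyte list (Adipoq, Plin1, Cidec, Lep, Fabp4, Retn and Cfd) summed to 40.7, 602 and 559 CPM against 27.0 and 49.1 CPM, its most abundant gene being Fabp4, which endothelial cells and macrophages also express. The 5 smooth muscle genes (Acta2, Myh11, Cnn1, Des and Tagln) summed to 355, 630.4 and 591 CPM in castrated and 196 and 124 CPM in intact replicates, and all 5 were past the unadjusted threshold and higher in castrated samples, beside 7.66% of the genes tested. The 5 endothelial genes (Pecam1, Cdh5, Kdr, Tek and Emcn) summed to 354, 221 and 267 CPM in castrated and 384 and 123 CPM in intact replicates, which overlapped. Cdh5, the most abundant, was at 235 CPM in intact replicate 1 and 38.9 CPM in intact replicate 2. The log2 fold change was positive for 4 of the 5 and negative for 1, Cdh5. In 2, Kdr and Tek, every castrated sample lay above both intact samples, beside 17.8% of the genes tested. Tek alone was past the unadjusted threshold, beside 7.66% higher.

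**Figure D3:**
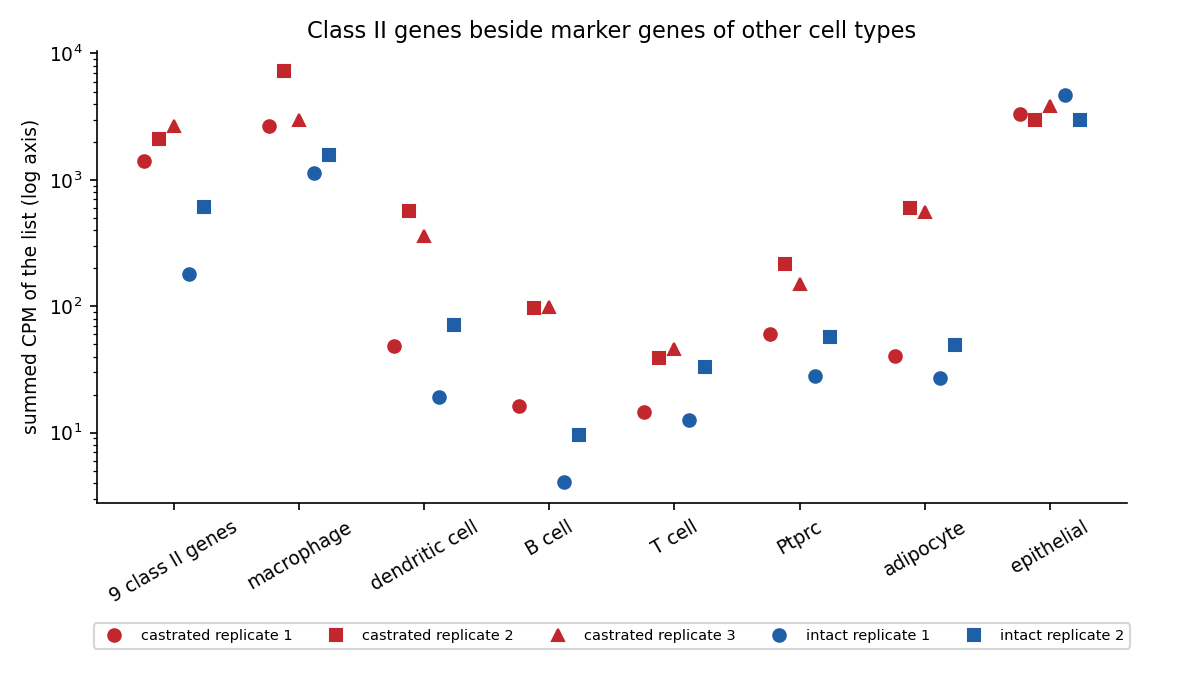
Summed CPM, on a log axis, of the 9 class II genes, of Ptprc and of 6 cell type marker lists, with 1 point per library (red, castrated, and blue, intact). The class II, macrophage, B cell and Ptprc values of the 3 castrated replicates lie above both intact replicates, while the dendritic, T cell, adipocyte and epithelial sums overlap.

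Set against these markers, the summed class II level per marker transcript overlapped between groups for Ptprc and for the macrophage, B cell and dendritic cell lists. The class II sum over Ptprc, as a ratio of CPM, was 23.2, 9.74 and 17.8 in castrated and 6.34 and 10.8 in intact replicates, with castrated replicate 2 below intact replicate 2. Over the macrophage list the ratio was 0.527, 0.291 and 0.888 in castrated and 0.158 and 0.392 in intact replicates. Over the B cell list it was 86.8, 21.6 and 26.8 in castrated and 44.6 and 64.8 in intact replicates, so castrated replicates 2 and 3 lay below both intact ones. Over the dendritic cell list it was 28.9, 3.73 and 7.38 in castrated and 9.29 and 8.59 in intact replicates, with the same 2 libraries below. Over the epithelial list it was 0.427, 0.711 and 0.688 in castrated and 0.0384 and 0.205 in intact replicates, higher in castrated samples without overlap, and over the T cell list it was likewise higher, at 97.3, 53.7 and 58.2 against 14.2 and 18.6. The ratios overlapped over the adipocyte list (34.7, 3.50 and 4.76 against 6.65 and 12.5), the smooth muscle list (3.98, 3.34 and 4.50 against 0.919 and 4.98) and the endothelial list (3.99, 9.53 and 9.97 against 0.468 and 5.01). The part of each cell type in the class II difference was not tested.

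Gene by gene, 4 of the 9 class II genes kept separate groups once divided by Ptprc (H2-Ab1, H2-Eb1, H2-DMb1 and H2-Oa), all higher in castrated samples, as was the case for 1.62% of the genes tested. The margin was small for H2-Eb1, at 1.59 in castrated replicate 2 against 1.57 in intact replicate 2, and for H2-Ab1, at 1.16 against 1.10, and H2-Oa had entered the test through the castrated samples. H2-Aa over Ptprc was 4.92, 1.99 and 3.78 in castrated and 0.931 and 2.23 in intact replicates. Castrated replicate 2, which had the most Ptprc, was thus below intact replicate 2 for H2-Aa, and it was so for Cd74 as well, at 4.57 against 5.38.

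**Figure D4:**
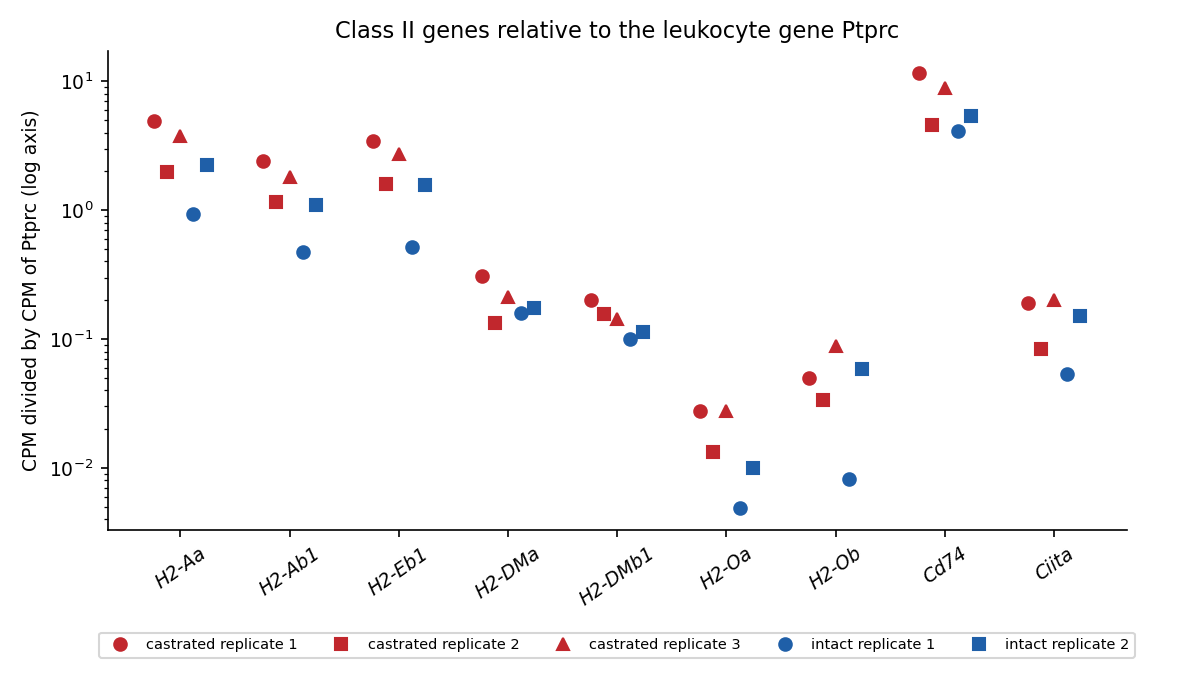
Ratio of the CPM of each class II gene to the CPM of Ptprc in each library, on a log axis. The castrated replicates lie above both intact replicates for H2-Ab1, H2-Eb1, H2-DMb1 and H2-Oa and overlap with them for the other 5 genes.

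The size of the difference depended on which intact replicate was used. Without intact replicate 1 the log2 fold changes of the 9 genes were between 1.13 for Ciita and 2.26 for H2-Oa, and without intact replicate 2 they were between 2.59 for H2-DMa and 5.10 for H2-Ob. H2-Aa went from 2.42 to 1.69 and 4.08, and Cd74 from 2.20 to 1.64 and 3.16. All 9 log2 fold changes were positive in each of 14 alternative settings of the test, leaving out each library in turn included. The number of the 9 past the unadjusted threshold, all higher in castrated samples, was 7 without castrated replicate 1, 4 without castrated replicate 2 and 5 without castrated replicate 3, where 9.72%, 4.5% and 4.09% of the genes tested were. It was 6 without intact replicate 1 and 9 without intact replicate 2, where 11% and 6.78% of the genes tested were. In these last fits the intact group is a single library, which is assumed to vary like the castrated ones.

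**Figure D5:**
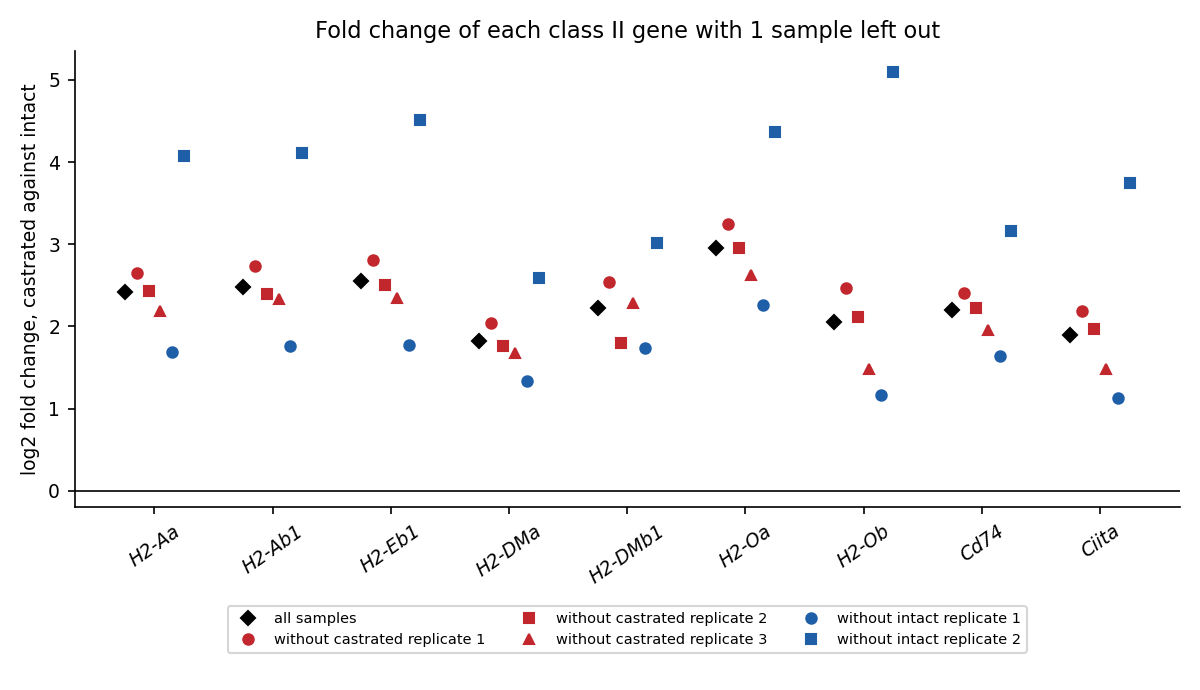
Log2 fold change of each class II gene, castrated against intact, with all libraries and with each library left out in turn. The values without intact replicate 1 are the lowest and those without intact replicate 2 the highest for every gene, and all are above 0.

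The genes outside the lists whose log2 CPM was most alike to the mean log2 CPM of the 9 genes over the 5 samples were Chp2, 9630028I04Rik, Agap1, Znf41-ps and Fbxo32, with Pearson's r between 0.9985 and 0.9995. Chp2 encodes a calcineurin B homologous protein and was at 4.96, 13.0 and 15.4 CPM in castrated and 0.186 and 2.06 CPM in intact replicates. Fbxo32, which encodes a muscle ubiquitin ligase subunit, was at 136, 157 and 181 CPM in castrated and 62.5 and 103 CPM in intact replicates. Over these 5 samples, 26 of 14508 genes exceeded r = 0.99, so likeness of this degree is a description of the sample order.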

How the data were processed

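RNA of prostate tumor tissue was sequenced from ribosome-depleted paired-end libraries. Per the submitters' processing notes, the authors used Trimmomatic 0.39, STAR 2.7.9 and HTSeq 2.0.2, and they deposited read counts per gene on mm10 with gene lengths; whether counting used strand was not given in the sources used here. Library totals were 18951782 to 28015507 counts, so that counting error matters for the lowest genes. The study's methods name TPM for its comparison, whereas the deposited counts were tested here. Genes with CPM over 1 in at least 2 samples (14612 of 24527) were fitted in edgeR 4.0.16 (R 4.3.3; limma 3.58.1) with TMM scaling and the quasi-likelihood test, legacy setting off, castrated against intact, and adjusted over all genes by Benjamini-Hochberg; SE is the log2 fold change over the square root of F. CPM printed are counts over library totals, and TPM were computed from the deposited lengths. SD and n refer to animals. Each p-value tests the difference between the groups against the spread between these animals, estimated with information shared across genes.

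The 9 genes, the pathway lists and the marker lists were chosen with earlier results of these data known. Named genes were the 9, the most abundant gene of each list, up to 4 genes of each pathway list with the smallest unadjusted p under 0.05, a fixed set of markers, and the 5 most alike genes. Same-numbered samples of the 2 groups are different animals. Alternatives included DESeq2 1.42.0, the likelihood ratio test, limma-voom, other scalings and filters, a replicate block and each library left out; the older quasi-likelihood fit, TMM-scaled CPM, the ratios to marker sums and the shares of genes over Ptprc and with 1 library left out were added after seeing the data. Scripts were tested on simulated data. No 2 libraries of a group agreed within sampling noise. Some marker genes are not reported here.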

Additional observations from a re-analysis of the deposited data

How the results depend on the processing

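For the 9 class II genes, calls depended on the test, and the direction was the same in every alternative. At an adjusted p of 0.05 with an absolute log2 fold change over 1, edgeR's quasi-likelihood test called 0 genes in all, DESeq2 989, and the likelihood ratio test 369. Of the 9 class II genes these called 0, 7 and 1. Over all alternatives the adjusted p of Cd74 ran from 0.00448 to 0.689, and that of H2-Ob from 0.311 to 0.818. The cause of the differences between tools was not tested. Leaving out 1 library at a time gave 0 to 1 genes called, 867 to 2570 past the unadjusted threshold (1596 with all libraries; 893 without castrated replicate 2, 867 without castrated replicate 3, 2570 without intact replicate 1), and 4 to 9 of the class II genes, where all libraries gave 7. Genes with separate groups were 4841, and 5358 to 10335 with 1 library left out, since fewer samples need to separate; of the class II genes 8 to 9 were separate. Same-numbered animals are different mice, and their deviations from the group means correlated at 0.149 for replicate 1 and -0.045 for replicate 2, so the numbers were not taken as pairs. With the replicate number as a block 975 genes and 7 of the class II genes were past the unadjusted threshold, and the adjusted p of Cd74 was 0.681. The numbers of genes past the unadjusted threshold without a filter and by limma-voom were 2153 and 1108.

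Signs that turned were those of genes outside the 9, close to 0 or carried by 1 library. For Creb1, Irgm1, Lck, Krt8 and Hoxb13, the log2 fold change with intact replicate 2 left out was 0.07, -0.32, -0.22, -0.31 and 2.32, and leaving out 1 library at a time gave -0.21 to 0.07 for Creb1, -0.32 to 1.09 for Irgm1, -0.24 to 0.4 for Lck, -0.31 to 0.51 for Krt8, -2.02 to 2.32 for Hoxb13, -1.63 to 0.85 for Cdh5 and -0.92 to 0.48 for Epcam. Cdh5 and Epcam turned with intact replicate 1 left out. Lck and Krt8 turned also with castrated replicate 3 left out, at -0.24 and -0.13, and with the replicate block, at -0.21 and -0.08. Low counts limit H2-Oa, H2-Eb2 and Ifng.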
